A study of Rattus norvegicus with 12 samples.

Results

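MicroRNA precursor genes are the genes whose transcripts fold into the hairpins from which microRNAs are cut. They were followed here in SD rats, in the auditory midbrain, that is the inferior colliculus (IC). A member was any gene measured by a probe with exactly 1 gene symbol, where the symbol starts with Mir and a digit or with Mirlet. Symbols ending in hg or os (host and opposite-strand transcripts) were dropped, which removed 1 symbol, and the brightest probe per gene was kept. This gave 362 members, each with 1 probe, among 18166 genes measured in the same way. Of the 362 members, 351 had an entry in the RefSeq microRNA tables for rat (GRCr8).

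The 12 arrays form 4 groups of 3. Left control and right control are the left and right IC of rats given a sham operation, an incision behind the ear that left the otic bulla undrilled. Left deaf and right deaf are the left and right IC of rats whose right cochlea had been ablated. Per the labels each arm had 20 rats, all groups were of the SD strain, and tissue was taken 2 weeks after surgery. Most fibres reach the IC from the opposite ear, so the left IC lost most of its driving input and the right IC kept most of it. Whether an array holds RNA of 1 rat or of several pooled rats, and whether the 2 sides come from the same rats, is not stated in the labels. The p-values therefore reflect only array-to-array spread, part of which may be technical. No age is given in the labels used here.

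Hippocampus is named in the title of the series and in the descriptions of the samples, but IC in the sample titles, source and tissue fields and in the design text. The defining markers bear on this conflict. All 10 listed genes of the auditory midbrain were measured, with levels from 5.32 to 10.1 on the log2 scale and a median of 8.88. Of these 7 lay above the median of all genes. The glutamate transporter gene Slc17a6 stood at 9.75 and the GABA synthesis gene Gad1 at 10.1. Of 10 hippocampal markers 9 were measured, with levels from 3.08 to 7.02 and a median of 5.25. Of these 2 lay above the median of all genes, and the cortical and hippocampal gene Neurod6 was at 3.40. Levels of different genes also depend on their probes, so these markers are only a rough guide to the tissue. The tissue is called IC below, as in the sample titles, source and tissue fields. Values are the authors' log2 intensities, which ran from 1.33 to 13.1, and array-to-array correlations over genes were 0.982 to 0.993.

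A microRNA gene is transcribed as a long primary transcript, from which the nuclear enzyme Drosha cuts a hairpin and the cytoplasmic enzyme Dicer cuts the mature strands. The mature strand guides an Argonaute protein to messenger RNAs through its seed, bases 2 to 8, and lowers their translation or stability. Many microRNA genes lie in clusters that share a primary transcript or in introns of host genes. In brain, miR-124 and miR-9 mark neurons and neural progenitors, miR-219 and miR-338 mark oligodendrocytes, and miR-132 and miR-212 follow neuronal activity. Labelled total RNA on an array of this kind reports the precursor or its primary transcript and not the mature strand, so the values below are precursor-gene signals.

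The sequences of the mature microRNAs on which the results turn are shown in lower case with the seed in capitals, from RefSeq (GRCr8). They were chosen because the member differed most between groups, because it shares a seed or a cluster with such a member, or because it belongs to the let-7 family. Members whose capitals are the same share a seed and so a set of candidate targets.
rno-let-7f-5p (Mirlet7f2): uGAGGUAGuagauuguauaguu
rno-let-7a-5p (Mirlet7a1): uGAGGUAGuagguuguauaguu
rno-let-7c-5p (Mirlet7c2): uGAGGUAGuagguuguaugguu
rno-let-7e-5p (Mirlet7e): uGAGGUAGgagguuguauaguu
rno-miR-98-5p (Mir98): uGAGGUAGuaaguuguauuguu
rno-miR-132-3p (Mir132): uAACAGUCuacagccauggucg
rno-miR-212-3p (Mir212): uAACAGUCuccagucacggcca
rno-miR-326-3p (Mir326): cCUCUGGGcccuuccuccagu
rno-miR-330-5p (Mir330): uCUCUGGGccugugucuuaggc
rno-miR-708-5p (Mir708): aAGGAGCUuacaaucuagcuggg
rno-miR-28-5p (Mir28): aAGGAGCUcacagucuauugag
rno-miR-3085 (Mir3085): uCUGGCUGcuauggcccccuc
rno-miR-31a-5p (Mir31): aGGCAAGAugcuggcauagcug
rno-miR-9a-5p (Mir9-1, Mir9-2, Mir9-3): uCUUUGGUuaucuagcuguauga
rno-miR-9b-3p (Mir3597-2, Mir3597-3): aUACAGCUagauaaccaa
rno-miR-380-5p (Mir380): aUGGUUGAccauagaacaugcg
rno-miR-379-5p (Mir379): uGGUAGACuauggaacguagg
rno-miR-411-5p (Mir411): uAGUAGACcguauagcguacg
rno-miR-410-3p (Mir410): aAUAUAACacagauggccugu
rno-miR-127-3p (Mir127): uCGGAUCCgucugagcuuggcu

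RefSeq listed 588 mature sequences for 343 members, with 479 distinct seeds, and 68 seeds occurred in more than 1 gene. The let-7 seed GAGGUAG was the most shared, in 10 genes. Some symbols carry a microRNA of another name in RefSeq: the genes Mir8 and Mir9 hold miR-7 sequences, and Mir3597-1, Mir3597-2 and Mir3597-3 hold miR-9b from the strand opposite Mir9-1, Mir9-2 and Mir9-3. Mir124-1, Mir124-2, Mir124-3, Mir150, Mir151b, Mir30b, Mir30d, Mir328, Mir383, Mir598 and Mir875 had no entry.

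Signal of the members was low. The members' mean log2 intensities over 12 arrays ran from 1.73 to 8.26 with a median of 4.10, against a median of 5.97 over all 18166 genes. Of 362 members 52 (14.4%) lay above the median gene and 210 (58.0%) below the lower quartile of all genes, 4.48. The brightest were Mir325 (8.26), Mir210 (8.17), the hypoxia-responsive microRNA gene, Mir761 (7.64), Mir466d (7.63) and Mir185 (7.60). The dimmest were Mir294 (1.77), a gene of the embryonic stem cell cluster, the muscle gene Mir1 (1.75) and Mir883 (1.73). Probe brightness depends on the probe's own sequence, so these levels describe the probes and do not rank the transcripts. Detection calls were not used here, and differences of dim members are given as measured.

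**Figure D1:**
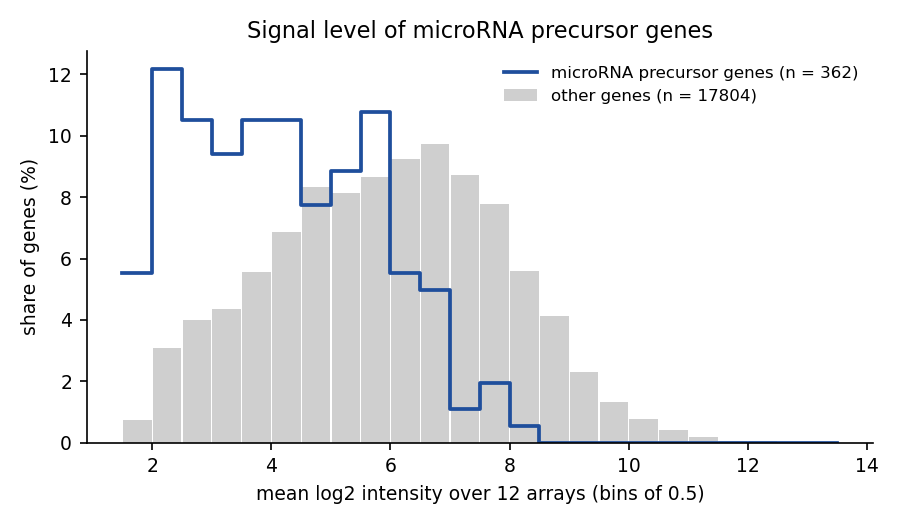
Share of genes (%) in bins of 0.5 of mean log2 intensity over 12 arrays, for 362 microRNA precursor genes (blue line) and the 17804 other genes (grey bars). The precursor genes are shifted to low values, with a median of 4.10, and 13 of them lie above 7.

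Level followed the base composition of the hairpin. RefSeq gave hairpins for all but 33 of the 362 members, 61 to 120 bases long with a median of 87, and their content of G and C ran from 28.6% to 72.4% with a median of 49.1%. The Spearman correlation of GC content with mean log2 intensity was 0.42 over these members. The median level was 2.77 in the 110 hairpins of lowest GC, 4.14 in the middle 109 and 5.07 in the 110 of highest GC. Hairpin length had a Spearman correlation of -0.017 with level. These are correlations across genes measured on the same arrays, given as a description.

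**Figure D2:**
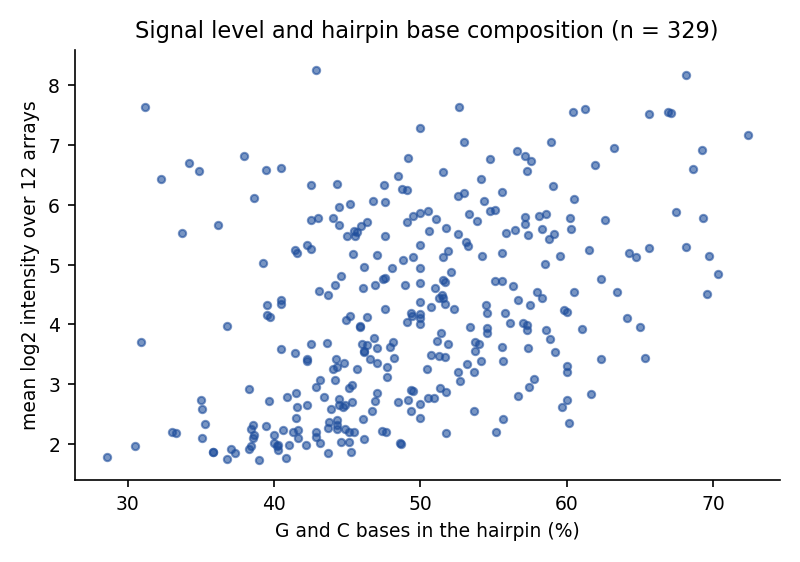
Mean log2 intensity over 12 arrays against the percentage of G and C bases in the hairpin, for the precursor genes (points) with a RefSeq hairpin. Levels are mostly under 3 at low GC content and spread upward as GC rises, with a Spearman correlation of 0.42.

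The members varied more between replicate arrays than other genes did. The median residual SD was 0.23 for members and 0.15 for all genes. At matched level the members had the larger SD above a mean of 3: between 5 and 6 the medians were 0.24 for members and 0.18 for other genes, between 6 and 7 they were 0.22 and 0.14, and above 7 they were 0.29 and 0.10. Under a mean of 3 the order was turned, with 0.20 for members and 0.22 for other genes between 2 and 3, and 0.15 and 0.18 under 2.

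Right control 3 and right control 1 stood apart in the bright members. Of the 13 members with a mean above 7, 10 had their highest value on right control 3 and 9 had their lowest value on right control 1. Mir210 measured 7.70 on right control 1, 8.19 on right control 2 and 8.71 on right control 3, while its other 9 arrays lay between 7.95 and 8.37. Over all 362 members, 71 were highest on right control 3, while 52 were lowest on right control 1 and 48 on right control 2. Of the 110 hairpins of highest GC 38 were highest on right control 3, and of the 110 of lowest GC 15 were. The right controls enter every right-sided comparison, and values without single arrays are given for some of the results that they move.

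Deafness was compared with sham on each side with limma (4 group means, all 12 arrays sharing the spread, two-sided, p-values adjusted by Benjamini-Hochberg over 18166 genes, threshold 0.05). No member passed in any of the 6 comparisons, and neither did any other gene, 0% of the genes tested. The smallest adjusted p of a member was 0.283 on the left, 1.00 on the right and 0.0926 for the difference between the sides. An exact test of 3 arrays against 3 cannot go below 0.1. The members below are therefore given as values that did not pass.

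In the left IC, which faces the ablated ear, 174 of 362 members were lower in deaf rats and the median difference was 0.0088 on the log2 scale, beside -0.0051 over all genes. The difference ran from -0.53 to 0.82. Of the members 18 (4.97%) had an unadjusted p under 0.05, 7 higher and 11 lower, where the background over all genes was 3.69%, or 1.7% higher and 1.99% lower. The deaf and control arrays did not overlap in 34 members (9.39%), against 10.3% of all genes. The typical size of the difference was 0.13 in members and 0.079 in all genes, beside the larger replicate spread given above. These shares lay near the background.

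The largest left difference was in Mir150, a microRNA gene of lymphocytes. Left controls measured 3.43, 3.57 and 4.02 and left deaf arrays 4.56, 4.77 and 4.14. The groups did not overlap, and left controls 1 and 2 were the lowest of the 12 arrays. The difference was 0.82 (SE 0.17), a fold of 1.76, with an unadjusted p of 5.4e-04 and a limma adjusted p of 0.899. Right controls (4.27, 4.34 and 4.11) and right deaf arrays (4.64, 4.36 and 4.48) lay between 4.11 and 4.64, which overlaps the left deaf arrays, and the right difference was 0.25 (SE 0.17).

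Mir31 measured 3.69, 3.82 and 3.72 in left controls and 4.70, 4.09 and 4.19 in left deaf arrays, a difference of 0.58 (SE 0.25). On the right it was lower in deaf arrays, by -0.28 (SE 0.25), and its right controls were spread from 3.60 to 4.77, which covers the left values. Mir3597-2, which holds miR-9b, measured 2.19, 2.25 and 2.21 in left controls and 2.59, 2.69 and 2.61 in left deaf arrays. That is a difference of 0.41 (SE 0.12) at a low level. Mir3597-3, which lists the same mature miR-9b, went the other way on the left, by -0.21 (SE 0.073). Mir3544 was higher by 0.26 (SE 0.11), and Mir3582, listed as miR-133c, by 0.22 (SE 0.10), or by 0.11 without left deaf 1.

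Lower in the left deaf IC without overlap were Mir672 (-0.27, SE 0.082), Mir199a2 (-0.36, SE 0.12), Mir3597-3, Mir322 (-0.34, SE 0.12), Mir19b1 (-0.24, SE 0.094) and Mir125b2 (-0.40, SE 0.16). Mir199a2, a gene expressed in mesenchymal cells, measured 4.19, 4.23 and 4.23 in left controls and 4.07, 3.72 and 3.79 in left deaf arrays. Mir672 lies in the gene Nexmif and measured 5.44, 5.51 and 5.39 against 5.26, 5.21 and 5.07. Meningeal markers moved on this side as well: all 9 measured were higher in left deaf arrays, with a median of 0.38 and none at an unadjusted p under 0.05. Their summed level was 0.13, -0.26 and -0.44 in left controls and -0.064, 0.72 and -0.12 in left deaf arrays. Left deaf 2 alone thus lay above all left controls, and right control 1 (0.60) and right deaf 2 (0.51) were also high. Of the 10 auditory midbrain markers 0 were higher on the left (median -0.094), of 9 oligodendrocyte markers 2 were (median -0.062). Of 3 measured red blood cell genes 0 were higher (median -0.18). Of 10 cerebellar markers 4 were higher on the left, and of 9 hippocampal markers 5 were. The part of these markers in the left-sided values was not tested. In bulk tissue, fewer cells of a type and less RNA per cell cannot be told apart.

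In the right IC, which faces the intact ear, 171 of 362 members were lower in deaf rats, with a median difference of 0.013 beside 0.0014 over all genes. Unadjusted p was under 0.05 in 22 members (6.08%), 17 higher and 5 lower, against 4.31% of all genes. For the higher direction alone the background was 2.12% and for the lower 2.19%. Of the 22 members, 4 lay in the Mir379 to Mir410 cluster and 4 in the Mir770 to Mir136 cluster of the same region, both described below. The arrays did not overlap in 34 members (9.39%), against 7.48% of all genes. Cerebellar markers moved with this comparison: their summed level was 0.31, 0.12 and 0.70 in the 3 right controls and between -0.20 and -0.0016 on the other 9 arrays. Of the 10 cerebellar markers 9 were lower in right deaf arrays and 6 of them had an unadjusted p under 0.05, led by Gabra6 at -1.54 from a mean level of 3.35. All 9 measured oligodendrocyte markers were also lower on the right, with a median of -0.13. The part of these markers in the right-sided values of the members was not tested.

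**Figure D3:**
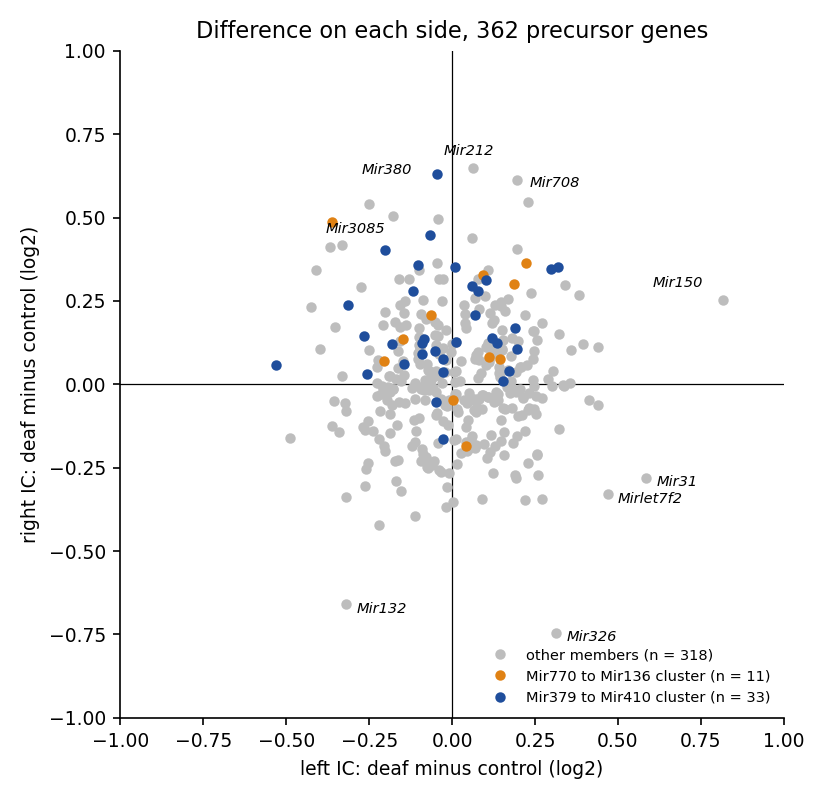
Log2 difference between deaf and control in the left IC (horizontal) and right IC (vertical) for 362 precursor genes (points), with the Mir379 to Mir410 cluster in blue and the Mir770 to Mir136 cluster in orange. Of the 33 blue points 31 lie above 0 on the vertical axis and 14 to the right of 0 on the horizontal axis.

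Among members lower in the right deaf IC, Mir326 differed most. Right controls measured 3.91, 3.71 and 4.72 and right deaf arrays 3.56, 3.23 and 3.32, a difference of -0.74 (SE 0.24) and a fold of 0.60. Right control 3 was the highest of the 12 arrays, and without it the difference was -0.44. In the left IC the deaf arrays were the higher ones, by 0.31 (SE 0.24), so within deaf rats the left exceeded the right by 0.89 (SE 0.24). Mir330, whose 5p strand has the same seed as miR-326-3p, differed by 0.032 (SE 0.15) on the right.

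The pair Mir132 and Mir212 lie next to each other, share the seed AACAGUC and are known as targets of the activity-regulated factor CREB. Mir132 measured 4.06, 3.97 and 3.69 in right controls and 3.44, 3.07 and 3.23 in right deaf arrays, without overlap. The difference was -0.66 (SE 0.18), a fold of 0.63, with an unadjusted p of 0.0038 and a limma adjusted p of 1.00. On the left Mir132 was 3.36, 3.74 and 3.30 in controls and 3.46, 3.24 and 2.74 in deaf arrays, which overlap. Mir132 was lower over both sides by -0.49 (SE 0.13). Mir212 went the other way on the right, from 4.01, 3.76 and 4.61 in controls to 4.77, 5.16 and 4.40 in deaf arrays, a difference of 0.65 (SE 0.24) with overlap. Across the 12 arrays the deviations of both genes from their group means had a correlation of -0.72. Neighbouring precursors with the same seed thus gave opposite readings here.

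**Figure D4:**
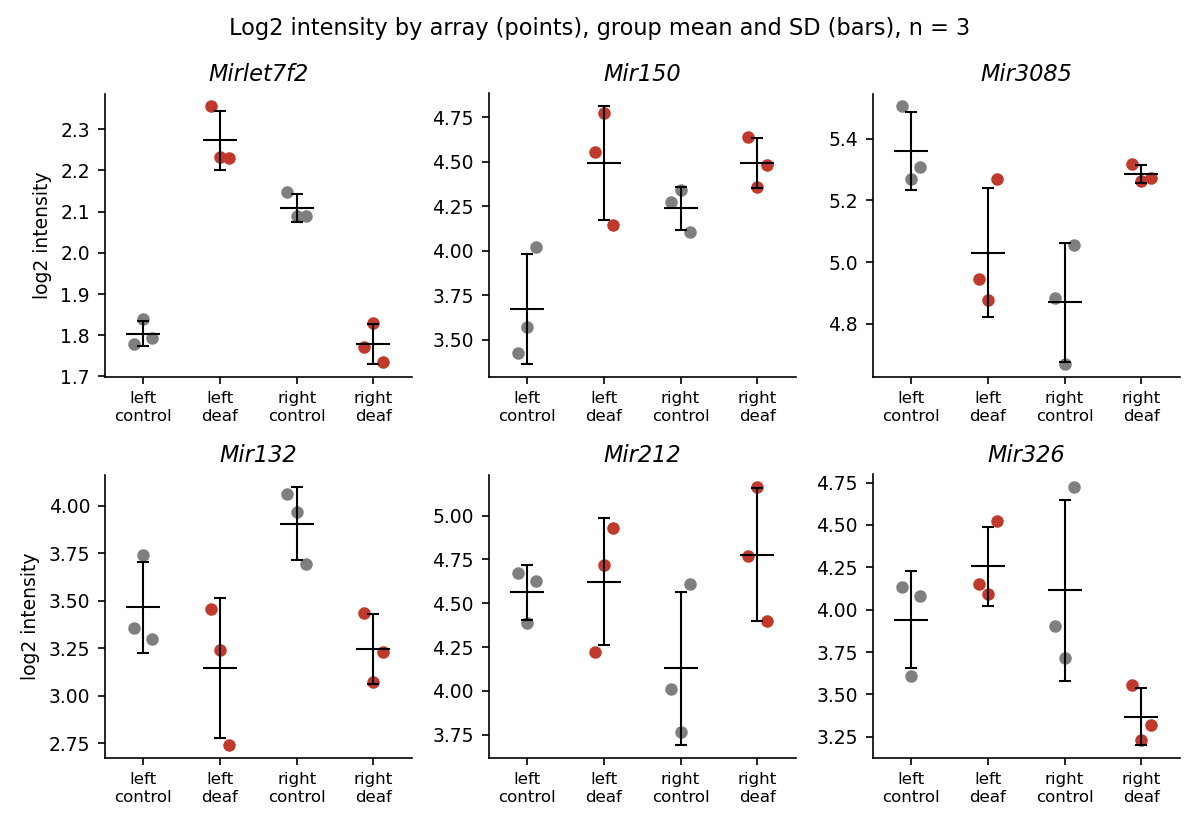
Log2 intensity on each array (points), with group mean and SD (bars, n = 3), in controls (grey) and deaf rats (red) for 6 precursor genes; each panel has its own axis, which does not start at 0. Mirlet7f2 separates the groups on both sides in opposite directions, Mir132 separates them on the right, and Mir212 runs opposite to Mir132 on the right with overlapping groups.

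The other members lower on the right without overlap were Mir3552 (-0.35, SE 0.11), which lies in the serotonin receptor gene Htr2c, Mir101-2 (-0.37, SE 0.13, and -0.24 without right deaf 1) and Mir3589 (-0.25, SE 0.13, and -0.16 without right deaf 1). Without right control 3 the Mir3552 difference was -0.26. Htr2c itself differed by 0.099 (SE 0.085) on the right, and Rcl1, the host of Mir101-2, by -0.0056 (SE 0.10).

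Higher in the right deaf IC were Mir3085, Mir708, Mir25, Mir540, Mir127 and Mir653. Mir3085 measured 4.88, 4.67 and 5.05 in right controls and 5.32, 5.26 and 5.27 in right deaf arrays, a difference of 0.42 (SE 0.12). On the left it was lower in deaf arrays, by -0.33 (SE 0.12), from 5.51, 5.27 and 5.31 to 4.94, 4.88 and 5.27. Left deaf 3 touched the control values there. Mir708 lies in the teneurin gene Tenm4 and measured 5.38, 4.91 and 4.58 against 5.73, 5.40 and 5.59, a difference of 0.61 (SE 0.20). Without right control 3 the Mir708 difference was 0.42. Tenm4 differed by -0.011 (SE 0.084). Mir28, which shares the seed AGGAGCU with miR-708-5p, differed by 0.0053 (SE 0.17). Mir25, a member of the cluster in the replication gene Mcm7, was 5.15, 4.55 and 4.94 in controls and 5.21, 5.31 and 5.61 in deaf arrays. The difference was 0.50 (SE 0.17), or 0.33 without right control 2, and Mcm7 differed by 1.7e-04 (SE 0.14). Mir653, in the calcitonin receptor gene Calcr, differed by 0.31 (SE 0.12), or by 0.18 without right deaf 1.

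Averaged over both sides, 20 members (5.52%) had an unadjusted p under 0.05, 11 higher (background 2.01%) and 9 lower (background 2.52%), beside 4.53% of all genes. The 6 deaf arrays separated from the 6 control arrays in 0 of 362 members and in 0.27% of all genes. The smallest adjusted p was 0.998. Mir150 was higher by 0.54 (SE 0.12), Mir708 by 0.40 (SE 0.14) and the oligodendrocyte gene Mir338 by 0.26 (SE 0.091). The other oligodendrocyte members differed by -0.13 (Mir219-2), -0.10 (Mir219a1) and 0.067 (Mir2964) over both sides. Without each array Mir219-2 ran from -0.19 to -0.046 and Mir219a1 from -0.15 to -0.028. Of 9 measured oligodendrocyte marker genes 1 was higher over both sides, with a median of -0.10.

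Left and right were compared within each arm. In control rats 24 members (6.63%) had an unadjusted p under 0.05, beside 4.95% of all genes, and 33 did not overlap, beside 9.8%. Mir3085 was higher on the left by 0.49 (SE 0.12), Mirlet7c2 by 0.77 (SE 0.23) and Mir496 by 0.55 (SE 0.16), while Mir215 (-0.62, SE 0.14), Mirlet7f2 (-0.30, SE 0.072) and Mir150 (-0.57, SE 0.17) were lower on the left. The right controls that carry the cerebellar markers enter each of these values, and the part of those markers was not tested. In deaf rats 14 members (3.87%) had an unadjusted p under 0.05, beside 3.34%, and 30 did not overlap, beside 8.31%. Mirlet7f2 (0.49, SE 0.072, limma adjusted p 0.133), Mir326 and Mir107 (0.39, SE 0.12) were higher on the left, and Mir196b (-0.65, SE 0.15), Mir411 (-0.36, SE 0.14, and -0.24 without left deaf 2) and Mir22 (-0.43, SE 0.17) were lower. These comparisons share arrays with the deaf against control comparisons and are not independent of them.

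The difference between the left and the right effect of deafness was tested as an interaction. An unadjusted p under 0.05 was found in 18 members (4.97%), beside 3.42% of all genes. Tissue markers differed in this comparison too. All 10 cerebellar markers had a higher left than right effect (median 0.41), 2 of them at such a p. All 9 measured meningeal markers did as well (median 0.54), with 0 at such a p. Of 10 auditory midbrain markers 3 did, and of 9 oligodendrocyte markers 8. The part of these markers in the interaction values was not tested. A single member, Mirlet7f2, moved without overlap in opposite directions on the sides, beside 0.38% of all genes. Mirlet7f2 measured 1.78, 1.84 and 1.79 in left controls and 2.36, 2.23 and 2.23 in left deaf arrays. On the right the order was turned, with 2.15, 2.09 and 2.09 in controls and 1.77, 1.83 and 1.73 in deaf arrays. All 6 values of left deaf and right control lay above all 6 of left control and right deaf. The left difference was 0.47 (SE 0.072), a fold of 1.38 with a limma adjusted p of 0.283, and the right difference was -0.33 (SE 0.072), a fold of 0.80 with an adjusted p of 1.00.

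The interaction of Mirlet7f2 was 0.80 (SE 0.10), the gene of smallest p among all 18166, with an unadjusted p of 5.1e-06 and an adjusted p of 0.0926. With a level-dependent and robust variance estimate the adjusted p was 1.00, and over all alternatives with every array it ran from 0.0914 to 1.00. The residual SD of Mirlet7f2 was 0.049, beside a median of 0.15 for members with a mean under 2. Its mean of 1.99 exceeded that of only 0.80% of all genes. Huwe1, the ubiquitin ligase gene that hosts it, differed by 0.064 (SE 0.072) on the left and 0.077 (SE 0.072) on the right, with a mean level of 9.27.

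The let-7 family, which holds back proliferation and stabilises differentiated cells, was measured by 11 of 12 listed genes. Their levels ran from 1.96 for Mirlet7f-1 to 5.75 for Mirlet7a1, with a median of 3.42, and 0 of 11 lay above the median gene. On the left 5 of 11 were higher in deaf rats with a median of -0.027, and on the right 5 of 11 with a median of -0.092. Over all genes 3.69% had an unadjusted p under 0.05 on the left and 4.31% on the right. Among these 11 only Mirlet7f2 had such a p in either comparison. Mir98, its neighbour in Huwe1 with the same seed, measured 4.99, 5.38 and 6.36 in right controls and 6.19, 5.65 and 6.21 in right deaf arrays. Mir98 was thus 0.44 (SE 0.29) higher with overlap where Mirlet7f2 was lower. Their residual correlation was -0.38 over 12 arrays. Mirlet7c2 and Mirlet7b, also neighbours, differed on the left by -0.41 (SE 0.23) and -0.36 (SE 0.26) and on the right by 0.34 (SE 0.23) and -0.13 (SE 0.26). Mirlet7c1 had the widest spread, with a residual SD of 0.46, and differed by -0.16 (SE 0.31) on the left. Members that share the seed therefore did not share a direction in these values.

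By position (GRCr8, same strand, neighbours at most 10 kb apart), 167 members stood alone and the others with a listed strand fell into 53 clusters. The largest, from Mir379 to Mir410, held 33 members, with levels from 1.78 to 6.71. It belongs to the imprinted Dlk1 to Dio3 region, whose microRNAs are transcribed from the maternal chromosome and are abundant in neurons, and it includes Mir134, a regulator of dendritic spine size, and Mir485, which acts at synapses. It was singled out after its values were seen, so counts are a description. In the right IC 31 of 33 members were higher in deaf rats, with a median difference of 0.14, and 4 of them (Mir380, Mir411, Mir410 and Mir496) had an unadjusted p under 0.05. Over all genes 9179 of 18166 were higher on the right, 4.31% had such a p, and 2.12% had it in the higher direction. In the left IC 14 of 33 were higher, with a median of -0.029, and 0 had such a p, beside 8763 of 18166 higher and 3.69% with such a p over all genes.

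Mir380 measured 5.30, 4.45 and 4.56 in right controls and 5.48, 5.73 and 4.99 in right deaf arrays, the largest right difference of the cluster at 0.63 (SE 0.25), with overlap. Mir379 measured 3.96, 3.39 and 3.93 against 4.14, 4.44 and 3.55, and Mir134 5.33, 5.70 and 5.65 against 5.57, 5.78 and 5.74. Mir544 alone in the cluster did not overlap, where 7.48% of all genes did not, with 6.10, 6.21 and 6.01 against 6.65, 6.45 and 6.26 (0.35, SE 0.19). The mean deviation of the 33 members from their own means was -0.0020, -0.28 and -0.030 on right controls 1, 2 and 3 and 0.11, 0.22 and -0.10 on right deaf arrays 1, 2 and 3. Right deaf 3 thus lay below right controls 1 and 3. Without right control 2 the right count was 23 of 33 and the median 0.093, and without right deaf 2 it was 23 of 33 and 0.095. Leaving out right deaf 3 gave a median of 0.23.

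**Figure D5:**
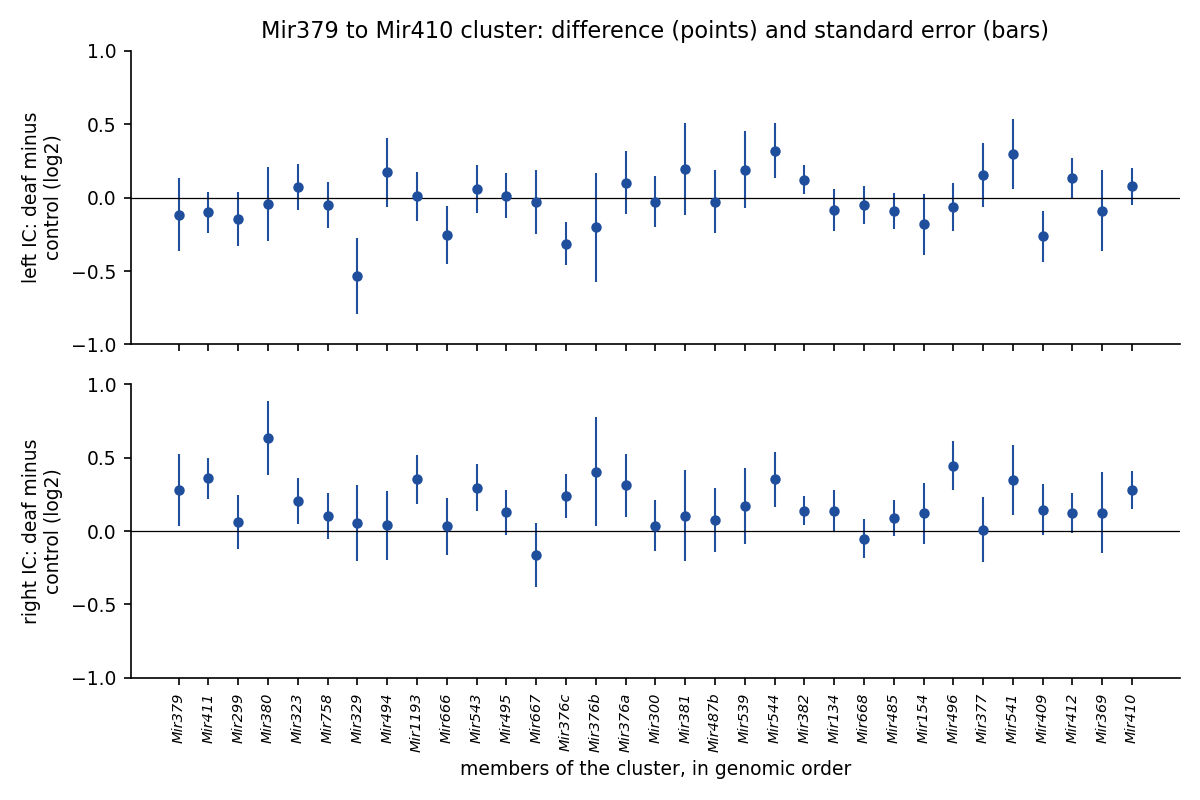
Log2 difference between deaf and control with its SE for the 33 members of the Mir379 to Mir410 cluster in genomic order, in the left IC (top) and the right IC (bottom). In the right IC 31 of 33 points lie above 0, and in the left IC 14 of 33 do.

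The members of this cluster were correlated from array to array. The median correlation of deviations from group means was 0.29 over its 528 pairs, and 407 pairs were positive. In the other clusters the median was -0.0043 over 235 pairs, and over all 65341 pairs of members it was 0.025. The 33 members are therefore not independent readings of the right-sided difference. The long noncoding RNA gene Meg3 of the same region differed by 0.13 (SE 0.12) on the right and -0.038 (SE 0.12) on the left. The protein-coding neighbour Dlk1 differed by -0.025 (SE 0.20) on the right, and Dio3, which encodes a deiodinase that inactivates thyroid hormone, by 0.20 (SE 0.17) on the right and 0.41 (SE 0.17) on the left.

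The second cluster of the region, from Mir770 to Mir136, held 11 members. In the right IC 9 of 11 were higher, with a median of 0.14, and on the left 7 of 11 with a median of 0.043. Mir673, Mir337, Mir540 and Mir127, 4 of the 11, did not overlap on the right, where 7.48% of all genes did not. Mir540 measured 6.14, 6.03 and 6.04 in right controls and 6.60, 6.28 and 6.31 in right deaf arrays (0.33, SE 0.12), and Mir127, antisense to the imprinted gene Rtl1, 6.20, 6.55 and 6.26 against 6.64, 6.61 and 6.66 (0.30, SE 0.11). Mir337 was 5.20, 4.67 and 4.55 against 5.27, 5.32 and 5.28 (0.49, SE 0.21) and went the other way on the left (-0.36, SE 0.21). The right median was 0.044 without right control 3 and 0.29 without right deaf 3. The residual correlation within this cluster had a median of 0.020.

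Positions relative to other genes came from the same reference. Of 362 members 177 lay inside another gene on its strand, 47 inside a gene on the opposite strand only, 44 inside a gene whose strand was not listed, 83 outside other genes, and 11 had no listed strand. For 93 members in 71 measured hosts the residual correlation of member and host over 12 arrays had a median of 0.0063 and was positive in 49. On the left 51 of 93 pairs differed in the same direction and on the right 54. The highest residual correlation was 0.81, for Mir770 in Meg3, and the lowest -0.84, for Mir93 in Mcm7. Mir338, which promotes oligodendrocyte differentiation, and its host Aatk had a residual correlation of 0.54.

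Overlapping precursors on opposite strands formed 40 pairs, of which 25 were positively correlated. Mir210 and Mir3574 had a residual correlation of 0.91 and Mir191 and Mir3555 one of 0.82, whereas Mir200a and Mir3548 had -0.81 and Mir1 and Mir3571 -0.75. Only Mir344-1 and Mir344a-2 had hairpins identical over more than 90% (92.9%), so their signals may not be separable.

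Neuron-enriched members were counted over 69 of 70 listed genes, with a median level of 4.69. On the left 40 of 69 were higher (median 0.037), with 2 higher and 2 lower at an unadjusted p under 0.05, and on the right 43 of 69 (median 0.062), with 6 higher and 1 lower. Over all genes the shares at such a p were 1.7% higher and 1.99% lower on the left, and 2.12% and 2.19% on the right. Of those 6, Mir380, Mir411 and Mir410 belong to the cluster above and Mir127 to its neighbour. The list also holds further members of the Mir379 to Mir410 cluster, such as Mir379, Mir382 and Mir539. Its counts are therefore not independent of those given for the cluster. The copies of the same mature microRNA read differently: Mir124-2 had a mean level of 5.91, Mir124-3 of 3.01 and Mir124-1 of 1.86. Mir124-1 was the copy with a right difference at an unadjusted p of 0.024, from 1.61, 1.67 and 1.50 in right controls to 1.94, 2.35 and 1.70 in right deaf arrays. Mir9-1, Mir9-2 and Mir9-3 differed on the right by -0.32 (SE 0.19), -0.029 (SE 0.38) and -0.028 (SE 0.22).

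Activity-regulated members, 21 of 21 listed, had 0 with an unadjusted p under 0.05 on the left and 3 on the right: Mir212 and Mir22 higher and Mir132 lower. Over all genes 3.69% had such a p on the left and 4.31% on the right. Mir22 was 6.06, 5.73 and 5.34 in right controls and 6.07, 6.31 and 5.98 in right deaf arrays. Mir134 differed by -0.084 (SE 0.15) on the left and 0.14 (SE 0.15) on the right, and Mir137 by -0.16 (SE 0.14) and 0.17 (SE 0.14). The median of the list was 0.0056 on the left and 0.042 on the right.

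Glial members were taken next. The 4 oligodendrocyte members (Mir219-2, Mir219a1, Mir2964 and Mir338) had levels of 5.29 to 6.48 and medians of -0.12 on the left and 0.084 on the right. Mir338 measured 6.51, 6.42 and 6.30 in left controls and 6.79, 6.59 and 6.56 in left deaf arrays (0.24, SE 0.13). Mir219-2 and Mir219a1 differed on the left by -0.23 (SE 0.15) and -0.19 (SE 0.14). Of 7 astrocyte members 5 were higher on the left (median 0.10), with 0 at an unadjusted p under 0.05 on either side. Over all genes 3.69% had such a p on the left and 4.31% on the right. Mir23a differed on the left by 0.30 (SE 0.22) and Mir145 by -0.32 (SE 0.27). Of 6 measured microglial and immune members Mir150 alone had an unadjusted p under 0.05, on the left. Mir21 differed by -0.065 (SE 0.16) on the left, and Mir223, a gene of myeloid cells, by 0.016 (SE 0.14).

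Inner ear and sensory members, 11 of 11 listed, had a median level of 3.68. The sensory cluster of Mir183, Mir96 and Mir182, which is needed by hair cells, differed on the left by 0.0093 (SE 0.19), -0.33 (SE 0.14) and -0.17 (SE 0.17). Mir96 measured 3.76, 3.81 and 3.99 in left controls and 3.46, 3.76 and 3.36 in left deaf arrays, and Mir184 was higher on the right by 0.36 (SE 0.15). Members of other tissues, 14 of 16 listed, were the dimmest list with a median of 2.51, and 0 of 14 had an unadjusted p under 0.05 on either side, beside 3.69% of all genes on the left and 4.31% on the right. The liver gene Mir122 was at 5.16 and differed by -0.034 (SE 0.14) on the left and -0.26 (SE 0.14) on the right.

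The genes that process microRNAs were measured for 29 of 32 listed, with a median level of 7.63. None of the 29 passed on either side. On the left 16 of 29 were higher (median 0.0022). An unadjusted p under 0.05 was found in 1, Adarb1, an RNA-editing enzyme gene, at -0.36, where 3.69% of all genes had such a p. On the right 16 of 29 were higher (median 0.014) and 0 had such a p, where 4.31% of all genes did. Drosha differed by 0.051 (SE 0.077) on the left and 0.050 (SE 0.077) on the right, and Dicer1 by -0.12 and 0.019.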

How the data were processed

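Values are the authors' deposited log2 intensities of 29489 probes on 12 one-colour Affymetrix arrays. Per the labels' protocols, total RNA was turned into single-stranded cDNA, fragmented and labelled with biotin. Array model, summarisation and normalization software, and genome build were each not given in the sources used here. Precision is limited by the number of arrays.

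Of the probes, 18511 had 1 symbol, 575 several and 10403 none; the brightest probe per gene left 18166 genes. limma 3.58.1 in R 4.3.3 was fitted with 4 group means (8 residual and 3.79 prior degrees of freedom) and tested on simulated data. Tables and figures used Python 3.11.15. A list's summed level is the mean of its members' gene-centred values. Residual correlations use deviations from group means over 12 arrays, without p.

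Named members were the 6 per direction (3 for the other comparisons) of smallest unadjusted p whose arrays did not overlap, up to 4 per list, the 5 brightest and the 3 dimmest, and hosts. Other names were chosen after their values were seen. Members and lists were chosen with earlier results of these data known. Positions come from RefSeq (GRCr8) and serve for names and neighbours only. The alternatives were all probes, a mean over probes, quantile normalization, centring, a filter on genes under the median level, a variance trend with robust estimation, only the groups compared, the replicate number as a block, and leaving out each array.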

Additional observations from a re-analysis of the deposited data

Results flagged for a closer look

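Mirlet7f2, at a mean level of 1.99, was the member whose arrays moved without overlap in opposite directions on the left and right. That is 1 of 362 members (0.28%), beside 0.38% of all genes. The difference between the left and right effects of Mirlet7f2 was 0.80 (SE 0.10), from 0.47 on the left and -0.33 on the right. Its unadjusted p was 5.1e-06 and its limma adjusted p 0.0926, which did not pass the threshold of 0.05. Without each array in turn the difference ran from 0.76 to 0.82 and the limma adjusted p from 0.23 to 0.57. All 10 cerebellar and all 9 measured meningeal markers also had a higher left than right effect. Their part in the Mirlet7f2 value was not tested.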

How the results depend on the processing

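No member passed the adjusted threshold in any of the 6 comparisons under the 8 alternatives or without each of the 12 arrays. Counts at an unadjusted p under 0.05 were 14 to 24 per comparison in the values reported. Same-numbered left and right arrays had residual correlations of 0.10, -0.013 and 0.057 in controls and 0.15, -0.056 and -0.043 in deaf rats. Between arrays of unlike number they ran from -0.16 to 0.20. With 3 arrays per group these values cannot tell whether the numbers pair the samples. With the replicate block 0 members passed in each comparison, and the limma adjusted p for the interaction of Mirlet7f2 was 0.268. Cluster medians and their alternatives were added after seeing the data. The left median of the Mir379 to Mir410 cluster (-0.029) was 0.099 over its 6 members above the median gene, with 4 higher, and -0.095 to 0.080 without each array. Its right median (0.14) was 0.093 to 0.23. The Mir770 to Mir136 median was -0.038 to 0.11 on the left and 0.044 to 0.29 on the right without each array. Averaged over both sides, Mir142 (-0.042) was -0.14 to 0.074 and Mir2964 (0.067) was -0.071 to 0.17 without each array. The cause of these reversals was not tested. With genes above the median level, dim members such as Mirlet7f2 were not tested. Low signal limits the dim members.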
